A study of Mus musculus with 16 samples.

Results

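The kinases that build the higher inositol phosphates and the inositol pyrophosphates were examined in the colon of mouse pups at weaning. The 10 genes were taken by name: Itpka and Itpkb, Ipmk, Itpk1, Ippk, Ip6k1, Ip6k2 and Ip6k3, and Ppip5k1 and Ppip5k2. All 10 had probes on the array and were among the 36711 genes tested, but the only probe of Ip6k3 was not well above background on any CSD array. The comparison was between 2 groups of 8 pups, with 1 array per pup: pups delivered by hysterectomy, as a model of C-section delivery (CSD), and raised by foster mothers that had given birth vaginally, and vaginally delivered pups (VD), whose mothers had exchanged their litters. All were conventional RjOrl:SWISS mice, an outbred stock kept free of specific pathogens. The CSD group held 4 females and 4 males, 2 of each sex from mother 3 and from mother 4. The VD group held 2 females and 3 males from mother 5 and 3 males from mother 6. Delivery mode thus varied only between litters, with 2 litters in each mode, so that an effect of litter and one of delivery cannot be told apart beyond the spread between these litters. The groups were spread evenly over the 2 slides. Of the probes on an array, 61.6 to 64.5% were well above background in CSD pups and 58.7 to 64.9% in VD pups.

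Inositol phosphates are small soluble signalling molecules. Phospholipase C cuts them from a membrane lipid as IP3, which releases calcium, and a series of kinases then adds further phosphates until every position of the ring is filled, in IP6. Kinases of the last steps add a phosphate onto a phosphate, giving the inositol pyrophosphates IP7 and IP8, which are known for roles in phosphate balance, energy metabolism and cell growth. In the gut, IP6 also arrives with plant food as phytate, which some bacteria break down.

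Ip6k2, which makes IP7 from IP6, was lower in CSD pups, and Ippk, which makes IP6 itself, was higher. No other kinase of the 10 passed the test. Both differences were small, at a fold of 1.22 (VD over CSD) for Ip6k2 and 1.15 (CSD over VD) for Ippk, but for both genes the CSD and the VD values did not overlap. Neither call held with litter means in place of pups, or without the litter of mother 4 or of mother 5. The array reads each of these genes at several sites, and the 60-base probes behind both results are introduced first. Their last 30 bases (positions 31 to 60) are shown 5′ to 3′, and capitals mark AATAAA, the usual signal for cleavage and polyadenylation. Searched on the printed strand over whole probes, these letters stood in 3 of the 28 probes of the kinases and in 9.77% of all 56605 probes, and a match describes letters, not a used site.
Ip6k2, probe A_51_P257058: gatgatgcagatacctctttcttccctgag
Ip6k2, probe A_66_P113339: aactacaaaaaccAATAAAtgcataactga
Ippk, probe A_52_P426229: ctttagagtttgtgaaacaactctgtttaa
Ippk, probe A_52_P99531: tatatcatccttttgagagactaatgaagg
Ippk, probe A_52_P48727: agacagcacttccccccaatagccacacag

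The array's design places the Ip6k2 probes on the plus strand of chromosome 9 (mm9), A_66_P113339 at chr9:108699954-108700013 and A_51_P257058 at chr9:108708569-108708628, which is 8615 bases downstream. The transcripts that the design lists for one probe (up to 4 are listed) include none of those listed for the other, and only A_51_P257058 is listed with the RefSeq transcript of the gene. The Ippk probes lie on the plus strand of chromosome 13. A_52_P426229, at chr13:49527821-49529243, covers 1423 bases of genome with 60 bases of probe and so crosses a splice junction. A_52_P99531 follows at chr13:49558159-49558218, and A_52_P48727 at chr13:49559720-49559779. The first 2 are listed with the RefSeq transcripts of Ippk and the last with a single Ensembl transcript. No annotation of mm9 was used here, so that the exon of each probe is not given.

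The first of the 2 genes that changed was Ip6k2, whose product is one of the IP6 kinases and has been linked to cell death. On a log2 scale, the intensity of Ip6k2 was 9.66, 9.72, 9.75 and 9.50 in CSD pups 1, 2, 6 and 7 of mother 4, and 9.58, 9.57, 9.73 and 9.77 in CSD pups 3, 5, 8 and 9 of mother 3. It was 10.05, 9.89, 10.01 and 9.91 in VD pups 4, 5, 9 and 11 of mother 5, whose pup 10 lay between the last 2, and 9.93, 9.82 and 9.95 in VD pups 6, 7 and 8 of mother 6. All 8 CSD pups lay below the lowest VD pup, and the 2 litters of each mode overlapped. CSD pups had a mean of 9.66 ± 0.10 (SD, n = 8), and VD pups one of 9.95 ± 0.07 (SD, n = 8). The log2 fold change of CSD over VD was -0.28 (SE 0.05, adjusted p = 0.0119, limma, in a model of delivery mode and sex with the mother as a random effect). The exact permutation test of the group means gave p = 0.000155 (two-sided), the smallest that 12870 assignments allow, without regard to litter or sex.

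Both probes of Ip6k2 were lower in CSD pups. A_51_P257058 ran from 10.58 to 10.75 in CSD pups (median 10.68) and from 10.82 to 11.08 in VD pups (median 11.01), with a log2 fold change of -0.31 (SE 0.04, adjusted p = 0.00254 over all probes, limma). Its call held under 31 of 36 alternatives. It was lost without the litter of mother 5 (-0.22, adjusted p = 0.119), with litter means (0.245), in males (0.134) and within each slide (0.356 and 0.133). A_66_P113339 ran from 8.32 to 8.82 in CSD pups (median 8.67) and from 8.78 to 9.04 in VD pups (median 8.89), with a log2 fold change of -0.25 (SE 0.07, adjusted p = 0.0838, limma). The groups were apart on the first probe and overlapped on the second, which did not pass the test. Within a pup the probes lay 2.05 ± 0.16 (SD, n = 8) apart in the CSD group and 2.11 ± 0.09 (SD, n = 8) apart in the VD group, and that distance was not shown to differ (exact permutation test, two-sided, p = 0.449).

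Ippk moved the other way. Its product adds the last phosphate of the ring and is the only enzyme known to make IP6 in mammals. The intensity of Ippk was 8.45, 8.55, 8.43 and 8.43 in CSD pups 1, 2, 6 and 7, and 8.38, 8.46, 8.43 and 8.55 in CSD pups 3, 5, 8 and 9. It was 8.21, 8.23, 8.37, 8.28 and 8.31 in VD pups 4, 5, 9, 10 and 11, and 8.22, 8.25 and 8.28 in VD pups 6, 7 and 8. No VD pup reached the lowest CSD pup, although CSD pup 3 (8.38) and VD pup 9 (8.37) nearly met. CSD pups had a mean of 8.46 ± 0.06 (SD, n = 8), and VD pups one of 8.27 ± 0.06 (SD, n = 8). The log2 fold change was 0.20 (SE 0.03, adjusted p = 0.0125, limma), and the exact permutation test gave p = 0.000155 (two-sided), again the smallest possible. The size depended on the background correction, with 0.34 on the scanner's processed signal (adjusted p = 0.0173, limma).

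Of the 3 Ippk probes, 2 were higher in CSD pups and the third did not pass the test. A difference between the probes was not tested. The probe across the splice junction, A_52_P426229, had a log2 fold change of 0.27 (SE 0.04, adjusted p = 0.00447 over all probes, limma), with the lowest CSD pup at 6.87 and the highest VD pup at 6.75. A_52_P99531 had 0.25 (SE 0.05, adjusted p = 0.0264, limma), with 10.88 to 11.17 in CSD pups and 10.67 to 10.96 in VD pups. A_52_P48727, with the Ensembl transcript alone, had 0.07 (SE 0.04, adjusted p = 0.481, limma), and its groups overlapped, with 7.32 to 7.53 in CSD pups and 7.19 to 7.46 in VD pups. The size of the first depended on the background correction, with 0.50 without offset and 0.65 on the scanner's processed signal, and it was called under 30 of 36 alternatives. Its call was lost without the litter of mother 4 (adjusted p = 0.0515, limma) or mother 5 (0.0514). The same held with litter means (0.218), in males (0.158) and within each slide (0.4 and 0.124). A_52_P99531 was called under 24 of 36 and lost its call without offset (adjusted p = 0.0717), on the processed signal (0.0667), and without VD pup 4 (0.0812) or CSD pup 9 (0.0613). Leaving out the litter of mother 3 (0.085), mother 4 (0.0944) or mother 5 (0.0874) also lost it. So did litter means (0.244), males alone (0.272) and each slide alone (0.542 and 0.184). The gene value, a mean over the 3 probes, is smaller than the difference seen on the probes of the RefSeq transcripts.

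**Figure D1:**
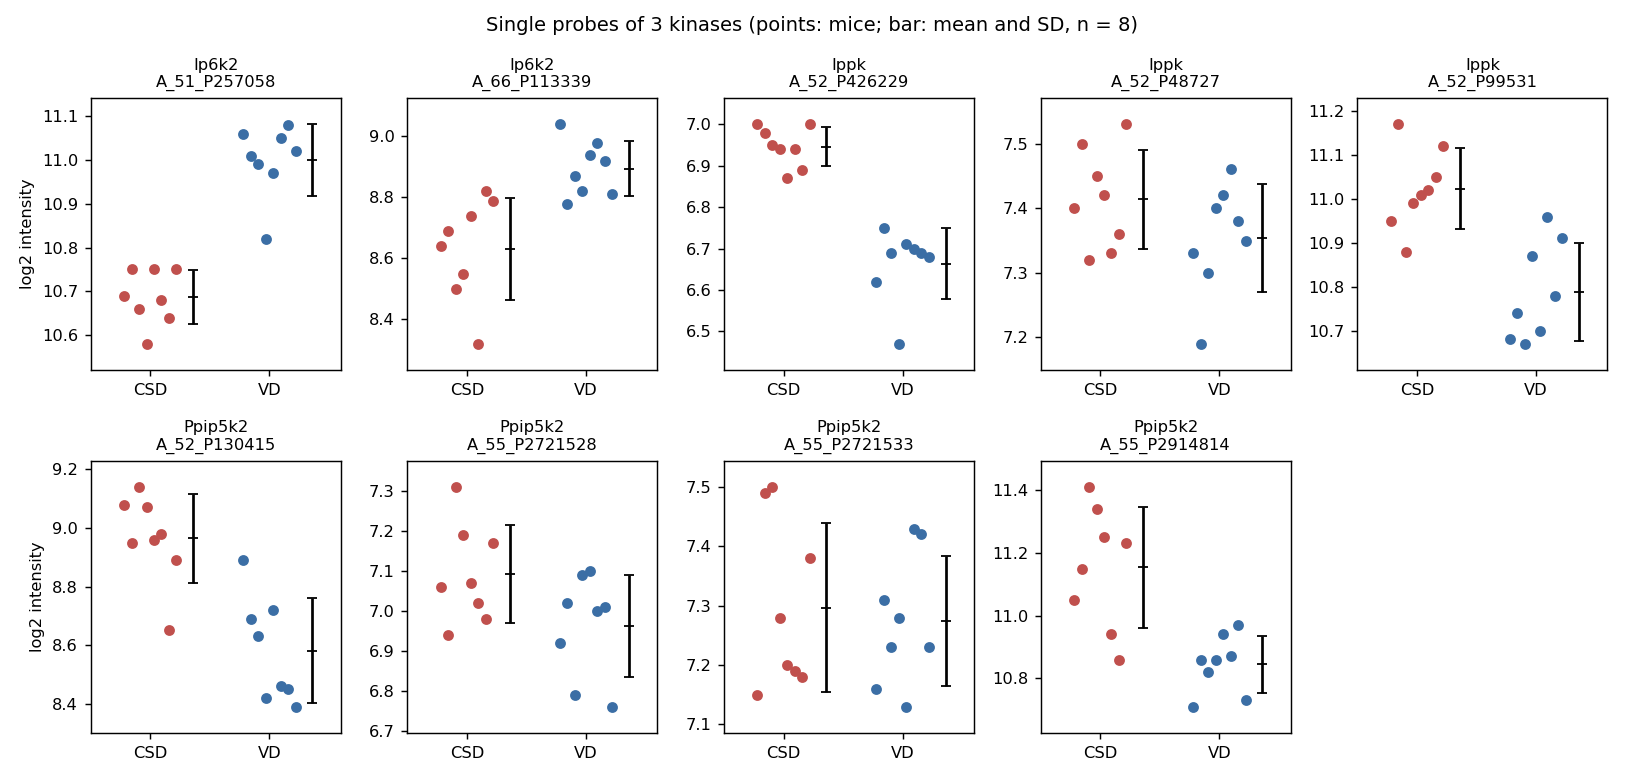
Log2 intensity (y axis, each panel with its own range) of the single probes of Ip6k2, Ippk and Ppip5k2 in CSD and VD pups. Points are pups and bars the mean and SD (n = 8 per group). The groups are apart on A_51_P257058 of Ip6k2 (10.58 to 10.75 against 10.82 to 11.08) and on A_52_P426229 of Ippk, where the lowest CSD pup is at 6.87 and the highest VD pup at 6.75.

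Against the background of the arrays, 2 of the 10 kinases were called (adjusted p under 0.05), where 460 genes (1.25%) were called in all, 0.706% of all genes with higher and 0.548% with lower values in the CSD group. The 4 kinases with an unadjusted p under 0.05 compare with 14.5% of all genes, and the 2 kinases whose groups did not overlap with 0.493%. On single probes, 4 of the 28 were called, against 1.74% of all probes. Over the 10, the log2 fold changes had a median of 0.01, against 0.00 over all genes. Of these fits, 5 were higher and 5 lower, where 51.7% of all genes were higher. The lower ones include Ip6k3, which was too dim for a direction. Over probes well above background, which leave out Ip6k3 and turn the sign of Ipmk, 6 of 9 kinases were higher and 3 lower, with a median of 0.09. The counts are a description. Inositol pyrophosphate signalling was among the pathways that the study named from these same arrays, so that they are not independent evidence.

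**Figure D2:**
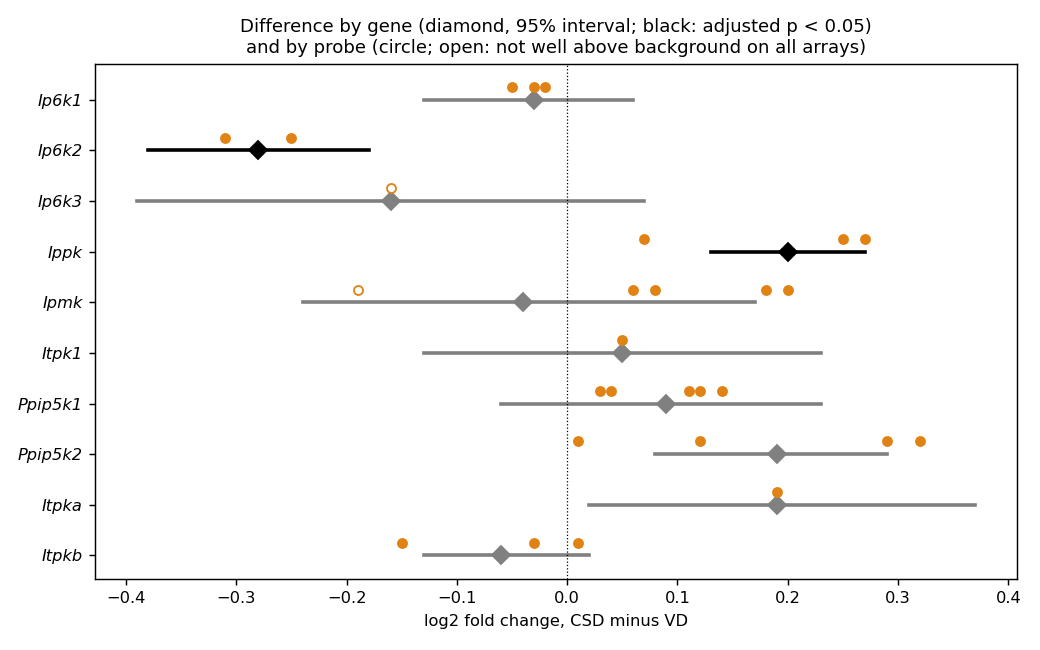
Log2 fold change (x axis, CSD minus VD) of the 10 kinases (y axis). Diamonds and bars give the gene value with its 95% interval, black where the adjusted p is under 0.05, and circles the single probes, open where a probe was not well above background on all arrays. Ip6k2 lies at -0.28 and Ippk at 0.20, and both probes of Ip6k2 and all 3 of Ippk fall on the side of their gene.

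Of the other IP6 kinases, neither passed the test, and Ip6k3 was too dim to be compared. Ip6k1, the widely expressed member, had 8.80 ± 0.08 (SD, n = 8) in the CSD group, 8.84 ± 0.08 (SD, n = 8) in the VD group, and a log2 fold change of -0.03 (95% interval -0.13 to 0.06, adjusted p = 0.786, limma). That interval does not reach the size of the Ip6k2 difference. Its 3 probes lay between -0.05 and -0.02. Ip6k3, known mainly from muscle and brain, has 1 probe, which was well above background on 0 of 8 CSD and 2 of 8 VD arrays (VD pups 6 and 11). Its values ran from 6.07 to 6.33 in CSD pups and from 6.12 to 7.01 in VD pups, and the fit gave an adjusted p of 0.532 (limma). Since its probe was not well above background on any CSD array, CSD pups have only a bound, the lowest signal of probes well above background or the probe's own where higher (mean 6.28). The VD mean was 6.37 with pup 11, the highest, and 6.28 without, so that neither a fold nor a direction is given.

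The kinases that act on IP7, Ppip5k1 and Ppip5k2, carry a kinase and a phosphatase domain in 1 protein and make IP8. Ppip5k2 came closest to the threshold among the kinases that did not pass. Its intensity was 8.59, 8.63, 8.62 and 8.53 in CSD pups 1, 2, 6 and 7, and 8.84, 8.72, 8.42 and 8.67 in CSD pups 3, 5, 8 and 9. It was 8.42, 8.47, 8.44, 8.46 and 8.28 in VD pups 4, 5, 9, 10 and 11, and 8.37, 8.41 and 8.47 in VD pups 6, 7 and 8. Of the CSD pups, 7 lay above all VD pups, and CSD pup 8 lay among them. The log2 fold change was 0.19 (SE 0.05, adjusted p = 0.0722, limma), and the exact permutation test gave p = 0.000932 (two-sided). Without CSD pup 8 the adjusted p was 0.0341, at a log2 fold change of 0.22. Other settings gave smaller values, with 0.11 within slide 1 (adjusted p = 0.754, limma), 0.14 without the litter of mother 5 (0.449) and 0.17 without VD pup 4 (0.196). Ppip5k2 was called under 3 of 38 alternatives. Of its 4 probes, A_52_P130415 passed the test over all probes (0.32, SE 0.06, adjusted p = 0.0196, limma). A_55_P2914814 (0.29, SE 0.08, adjusted p = 0.0642) and A_55_P2721528 (0.12, adjusted p = 0.415) did not, and A_55_P2721533 had 0.01 (adjusted p = 0.959). The call of A_52_P130415 held under 29 of 36 alternatives and was lost without the litter of mother 4 (adjusted p = 0.12) or mother 5 (0.199), without CSD pup 7 (0.0516), with litter means (0.209), in males (0.193) and within each slide (0.325 and 0.348). The last 2 probes are each listed with a single Ensembl transcript, and the first 2 with the RefSeq transcript.

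Ppip5k1 had a log2 fold change of 0.09 (95% interval -0.06 to 0.23, adjusted p = 0.612, limma), and its 5 probes lay between 0.03 and 0.14. Its value depended on which pups were included: it was 0.02 (adjusted p = 0.893, limma) without CSD pup 8, 0.21 (unadjusted p = 0.00857, adjusted p = 0.199) without the litter of mother 4 and -0.04 (adjusted p = 0.745) without that of mother 3. CSD pups of mother 3 had 8.36 ± 0.14 (SD, n = 4), CSD pups of mother 4 had 8.14 ± 0.13 (SD, n = 4), VD pups of mother 5 had 8.19 ± 0.03 (SD, n = 5) and VD pups of mother 6 had 8.07 ± 0.09 (SD, n = 3). The litters of mothers 4 and 3 differed by -0.22 (SE 0.07, unadjusted p = 0.0107), which did not pass adjustment (adjusted p = 0.429, limma).

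**Figure D3:**
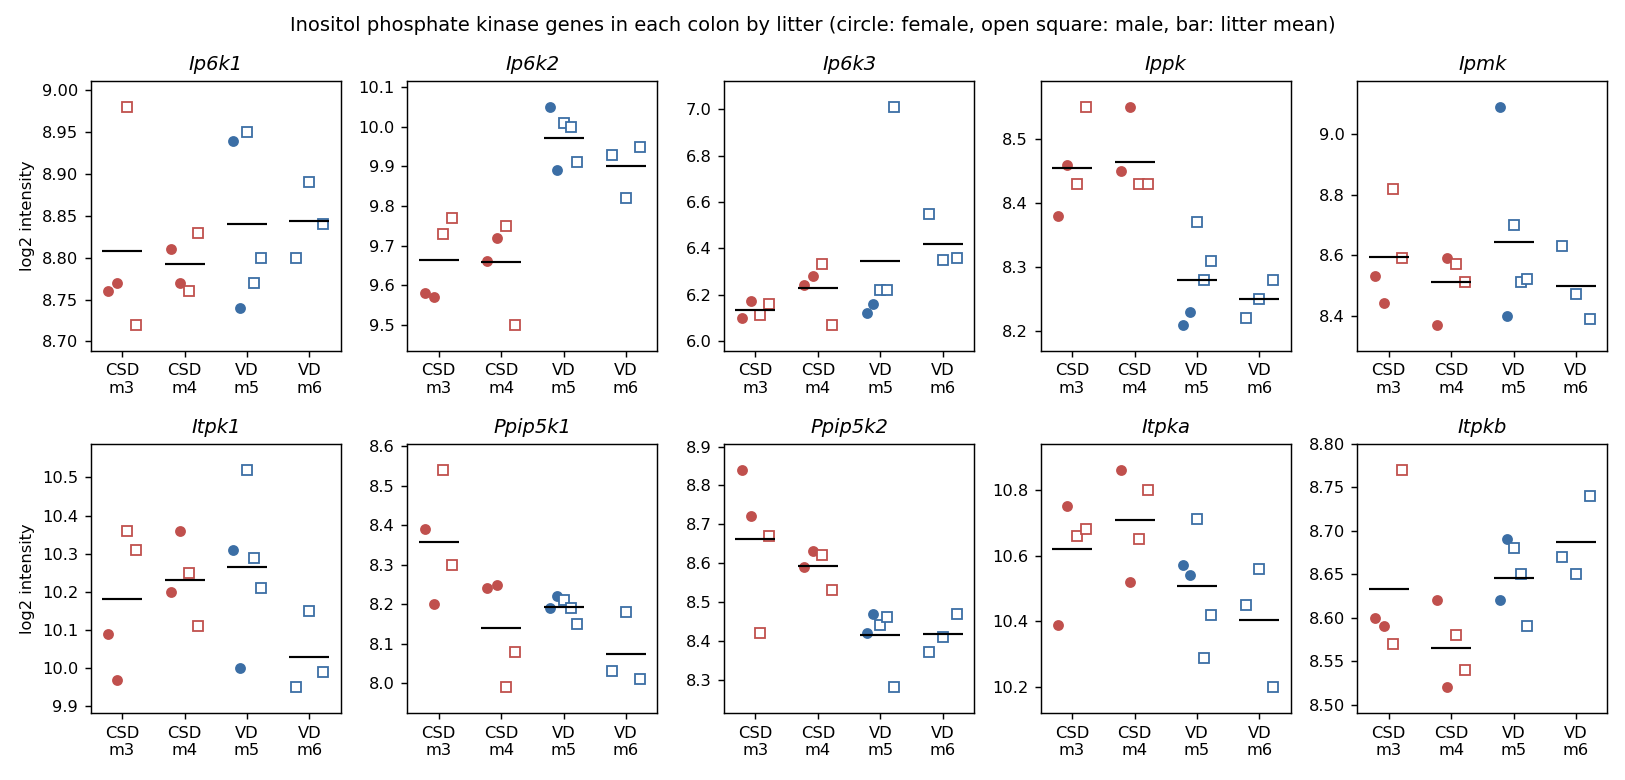
Log2 intensity (y axis, each panel with its own range) of the 10 kinases in every pup, by litter (x axis, m3 to m6 for mothers 3 to 6). Filled circles are females, open squares males and bars litter means. For Ip6k2 all CSD pups lie below 9.82, the lowest VD value, and for Ippk all lie above 8.37, the highest VD value.

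Kinases of the earlier steps did not pass the test. Itpka and Itpkb turn IP3 into IP4, which ends the calcium signal of IP3, and Itpkb is known for its part in lymphocyte development. Itpka had 10.67 ± 0.15 (SD, n = 8) in the CSD group, 10.47 ± 0.17 (SD, n = 8) in the VD group, and a log2 fold change of 0.19 (SE 0.08, adjusted p = 0.282, limma). The groups overlapped, with 10.39 to 10.86 in CSD and 10.20 to 10.71 in VD pups. Itpkb had a log2 fold change of -0.06 (95% interval -0.13 to 0.02, adjusted p = 0.523, limma). Its 3 probes ran from -0.15 to 0.01, and A_66_P137520, the farthest, had an adjusted p of 0.0838 over all probes (limma). Their paralog Itpkc had 0.03 (SE 0.06, adjusted p = 0.883, limma), and its 2 probes, at -0.04 and 0.10, differed in sign.

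Ipmk, which makes IP4 and IP5 and also phosphorylates a membrane lipid, had a log2 fold change of -0.04 (95% interval -0.24 to 0.17, adjusted p = 0.900, limma), and without VD pup 4 it had 0.08. Over its 4 probes well above background on all arrays, which lay between 0.06 and 0.20, the gene had a log2 fold change of 0.13 (SE 0.08, adjusted p = 0.358, limma). The remaining probe, A_55_P2596194, was well above background only on the arrays of VD pups 4 and 6, and its spot on the array of VD pup 4 was marked as an outlier and left out, so that the value of that pup (9.09) is a mean over the 4 brighter probes. No fold is given for it, since the VD mean did not exceed the lowest signal well above background. Itpk1, which phosphorylates an IP3 isomer on the way to IP5, had 0.05 (95% interval -0.13 to 0.23, adjusted p = 0.847, limma). Its VD litters were at 10.26 ± 0.18 (SD, n = 5) for mother 5 and 10.03 ± 0.10 (SD, n = 3) for mother 6, a difference of -0.28 (SE 0.10, unadjusted p = 0.017) after sex was taken into account, which did not pass adjustment (adjusted p = 0.275, limma).

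The litters give the scale on which a difference of delivery modes has to be read. Between mothers 4 and 3, 0 of the 10 kinases were called, 1 had an unadjusted p under 0.05 (Ppip5k1), and 0.0872% of all genes were called (limma). Between mothers 6 and 5, again 0 were called, against 0.874% of all genes called (limma), and Itpk1 alone had an unadjusted p under 0.05. Ip6k2 differed by 0.00 (SE 0.06) between the CSD litters and by -0.09 (SE 0.07) between the VD litters, and Ippk by 0.01 (SE 0.05) and -0.05 (SE 0.05). Leaving out Ip6k3, the litter means of the delivery modes did not overlap for 6 of 9 kinases, as for 42.0% of all genes. With litter means in place of pups (2 against 2), the log2 fold changes were -0.28 (SE 0.04) for Ip6k2 and 0.20 (SE 0.04) for Ippk. Neither was called (limma, adjusted p = 0.257 and 0.295), and 0 kinases and 0 genes were called in all. An unadjusted p under 0.05 was reached by 4 of the 9 kinases other than Ip6k3 and by 4034 of the 36711 genes (limma). An exact permutation test of 2 against 2 litters cannot go below p = 0.333.

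Sex made no difference that passed the test. Between females and males, 0 of the 10 kinases were called, with 0 at an unadjusted p under 0.05, against 0.0599% of all genes called (limma), and the smallest p was that of Ppip5k2, at 0.09 (SE 0.05, adjusted p = 0.804). The delivery by sex term called 0 of the 10, against 0.00272% of all genes called (limma), and 0 of the 10 had an unadjusted p under 0.05 for it. Since the only VD females were 2 pups of mother 5, this term rests on few animals and in part on litter. For Ip6k2 that term was -0.08 (SE 0.10) and for Ippk 0.07 (SE 0.07). In the 10 males alone, Ip6k2 had -0.25 (SE 0.06, adjusted p = 0.249) and Ippk 0.17 (SE 0.04, adjusted p = 0.258), without a call for either (limma). Within slide 1 the log2 fold changes were -0.30 for Ip6k2 and 0.15 for Ippk, and within slide 2 they were -0.26 and 0.25, each with an exact permutation p = 0.0286 (two-sided, 4 against 4), the smallest possible.

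In the rest of inositol phosphate metabolism, 56 genes on 5 lists were measured, and 2 of them were called, both higher in CSD pups, against 1.25% of all genes. Over the 56, 14 had an unadjusted p under 0.05, against 14.5% of all genes, the median was 0.03, and 35 were higher and 21 lower, where 51.7% of all genes were higher. Of 23 inositol phosphate and pyrophosphate phosphatases, 1 was called and 8 had an unadjusted p under 0.05 (of all genes, 1.25% and 14.5%), with 18 higher, 5 lower and a median of 0.05. The called gene was Bpnt1, a bisphosphate nucleotidase that also dephosphorylates small inositol phosphates. Bpnt1 ran from 10.48 to 10.71 in CSD pups (median 10.62) and from 10.06 to 10.31 in VD pups (median 10.26), so that the groups did not overlap. Its log2 fold change was 0.38 (SE 0.05, adjusted p = 0.00213, limma), and both of its probes passed the test over all probes, at 0.48 and 0.28. Bpnt1 lost its call without the litter of mother 5 (0.29, adjusted p = 0.0889), with litter means (0.264), in males (0.132) and within each slide (0.177 and 0.211).

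Among 7 genes of IP3 receptors and of inositol or phosphate transport, 1 was called and 2 had an unadjusted p under 0.05 (of all genes, 1.25% and 14.5%). Of the 7, 3 were higher and 4 lower, with a median of -0.01. The called gene was Slc5a3, which carries myo-inositol into the cell together with sodium and is known to answer to osmotic stress. Slc5a3 ran from 10.08 to 10.69 in CSD pups (median 10.31) and from 9.46 to 10.19 in VD pups (median 9.65). Among VD pups only pup 9, at 10.19, reached into the CSD range. The log2 fold change was 0.62 (SE 0.11, adjusted p = 0.0164, limma), the largest rise among all these genes of the pathway, and its 2 probes had 0.61 and 0.62. Slc5a3 lost its call without VD pup 4 (0.57, adjusted p = 0.053), without the litter of mother 4 (0.51, 0.097) or mother 5 (0.63, 0.0901), with litter means (0.257), in males (0.249) and within each slide (0.47 and 0.184).

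The 13 phospholipase C genes, which release IP3, gave 0 calls and 3 unadjusted p under 0.05 (limma), against 1.25% and 14.5% of all genes. Of the 13, 9 were higher and 4 lower, with a median of 0.04. The smallest p were those of Plcg2, the phospholipase C of B cell receptor signalling, at -0.43 (SE 0.12, adjusted p = 0.0952, limma; called under 2 of 38 alternatives), and of Plce1, a phospholipase C bound by Ras proteins, at 0.11 (SE 0.04, adjusted p = 0.187, limma). The 12 genes of inositol synthesis and phosphoinositide kinases gave 0 calls and 1 unadjusted p under 0.05 (limma), against the same 1.25% and 14.5% of all genes. Of the 12, 4 were higher and 8 lower, with a median of -0.02. Cdipt, which makes phosphatidylinositol, was at -0.18 (SE 0.04, adjusted p = 0.0543, limma) and was called under 7 of 38 alternatives, and Pip4k2b, a kinase of phosphatidylinositol phosphate, was at -0.11 (SE 0.05, adjusted p = 0.348, limma).

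**Figure D4:**
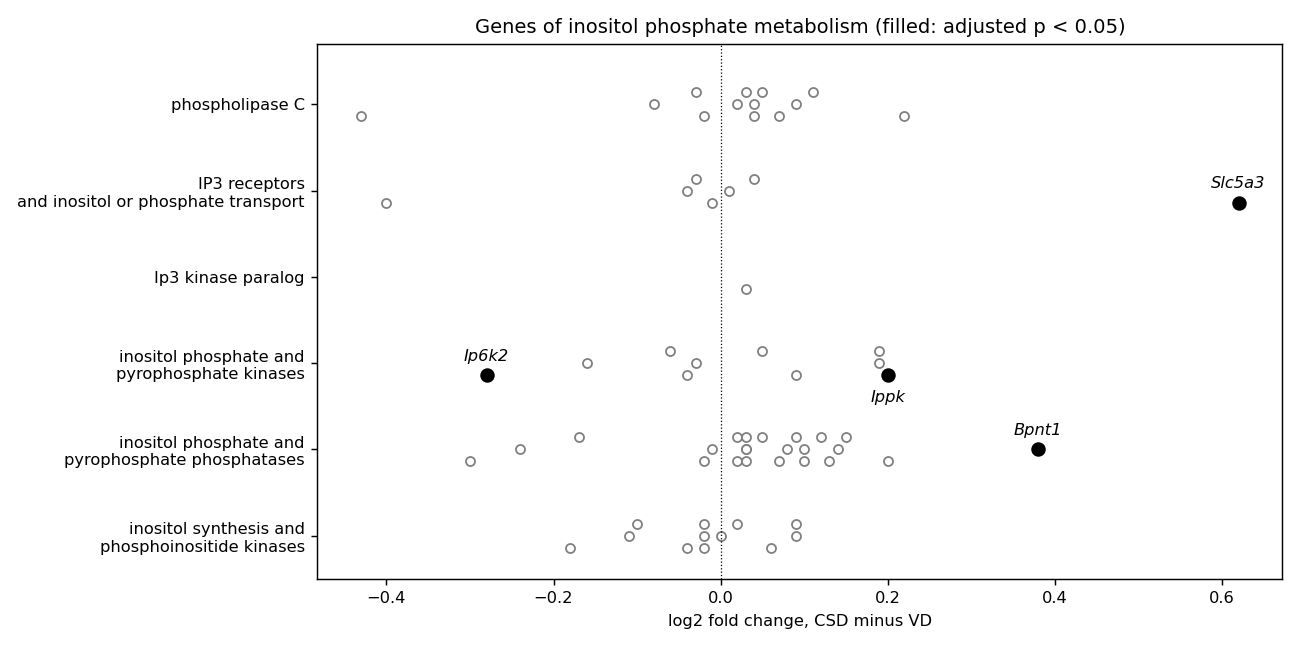
Log2 fold change (x axis, CSD minus VD) of each gene of the pathway lists (y axis). Filled points passed an adjusted p under 0.05 and are named: Ip6k2 at -0.28, Ippk at 0.20, Bpnt1 at 0.38 and Slc5a3 at 0.62. The vertical spread within a list only separates points.

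Markers of the tissue and of other cell types were checked. All 9 epithelial and all 6 smooth muscle markers had a probe well above background on all 16 arrays, while 3 of the 5 small intestine markers (Lct, Sis and Apoa4) did not. Immune cell markers had lower values in CSD pups, but none of those listed passed the test and the groups overlapped. All 5 B cell markers were lower in CSD pups. Of them, 0 were called (limma) and 2 had an unadjusted p under 0.05 (of all genes, 1.25% and 14.5%). Their mean log2 intensity ran from 7.75 to 8.90 in CSD pups (median 8.30) and from 8.38 to 9.38 in VD pups (median 8.88), and their brightest gene was Cd79b. All 7 T cell markers were lower as well, again with 0 called and 2 at an unadjusted p under 0.05 (limma). Their mean had medians of 7.95 in CSD and 8.29 in VD pups, and Cd3d was the brightest and Cd8a not well above background on all arrays. The 4 macrophage markers measured differed by -0.22 and the 9 epithelial markers, of which 8 were higher, by 0.16. In both lists 0 were called, and 1 macrophage and 2 epithelial markers had an unadjusted p under 0.05 (limma). The 6 smooth muscle markers, of which 5 were lower and 0 called, differed by -0.13. Of 5 skeletal muscle markers, 4 were well above background on all arrays (brightest Acta1, Myh4 not), and the mean of the 5 ran from 8.14 to 8.63 in VD pups (median 8.34), with a median of 8.26 in CSD pups. The small intestine markers (brightest Fabp2) had log2 fold changes from -0.08 to 0.63. In each of these 2 lists 0 were called and 1 gene had an unadjusted p under 0.05 (limma). The 7 markers of enteric neurons and glia (brightest Uchl1), all well above background, differed by -0.03. The part of such shifts in the kinase values was not tested, and in whole tissue fewer cells of a type and less RNA per cell cannot be told apart.

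Across pups of the same litter the kinases did not move as 1 group. After the litter means were subtracted, the 45 pairs of kinases had correlations with a median of 0.02 over the 16 arrays. The correlations ran from -0.51 (Ip6k1 and Ppip5k2) to 0.64 (Ip6k1 and Ipmk). The Ipmk value of VD pup 4 (9.09) lacks the dimmest probe and is a mean over the brighter probes only. All correlations of Ipmk, with the largest among them, include that value, and they were not computed without it. Among 10933 named genes with every probe well above background, those most like Ip6k2 were Selenom (r = 0.88), Gm10575 (r = 0.86) and Rbakdn (r = 0.86), and those most like Ippk were Pdpk1 (r = 0.87), Lmtk2 (r = 0.85) and Efna2 (r = 0.85). These are descriptions over 16 arrays that share their slides and normalization. Of the 6 genes, Pdpk1 was called between the delivery modes (0.16, adjusted p = 0.046, limma).

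Settings that lost the calls of Ip6k2 and Ippk were mainly those with fewer pups or litters. Ip6k2 was called under 31 of 38 alternatives, with log2 fold changes between -0.33 and -0.22, and Ippk under 31 of 38, between 0.15 and 0.35. Both directions held in all 38, and both calls held when any single pup was left out. Neither gene was called without the litter of mother 4 (adjusted p = 0.0624 and 0.0592) or of mother 5 (0.215 and 0.0873), and without the litter of mother 3 Ippk was not called (0.0552). Of the changes in processing, a background correction without offset lost the call of Ip6k2 (-0.30, adjusted p = 0.052, limma).

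**Figure D5:**
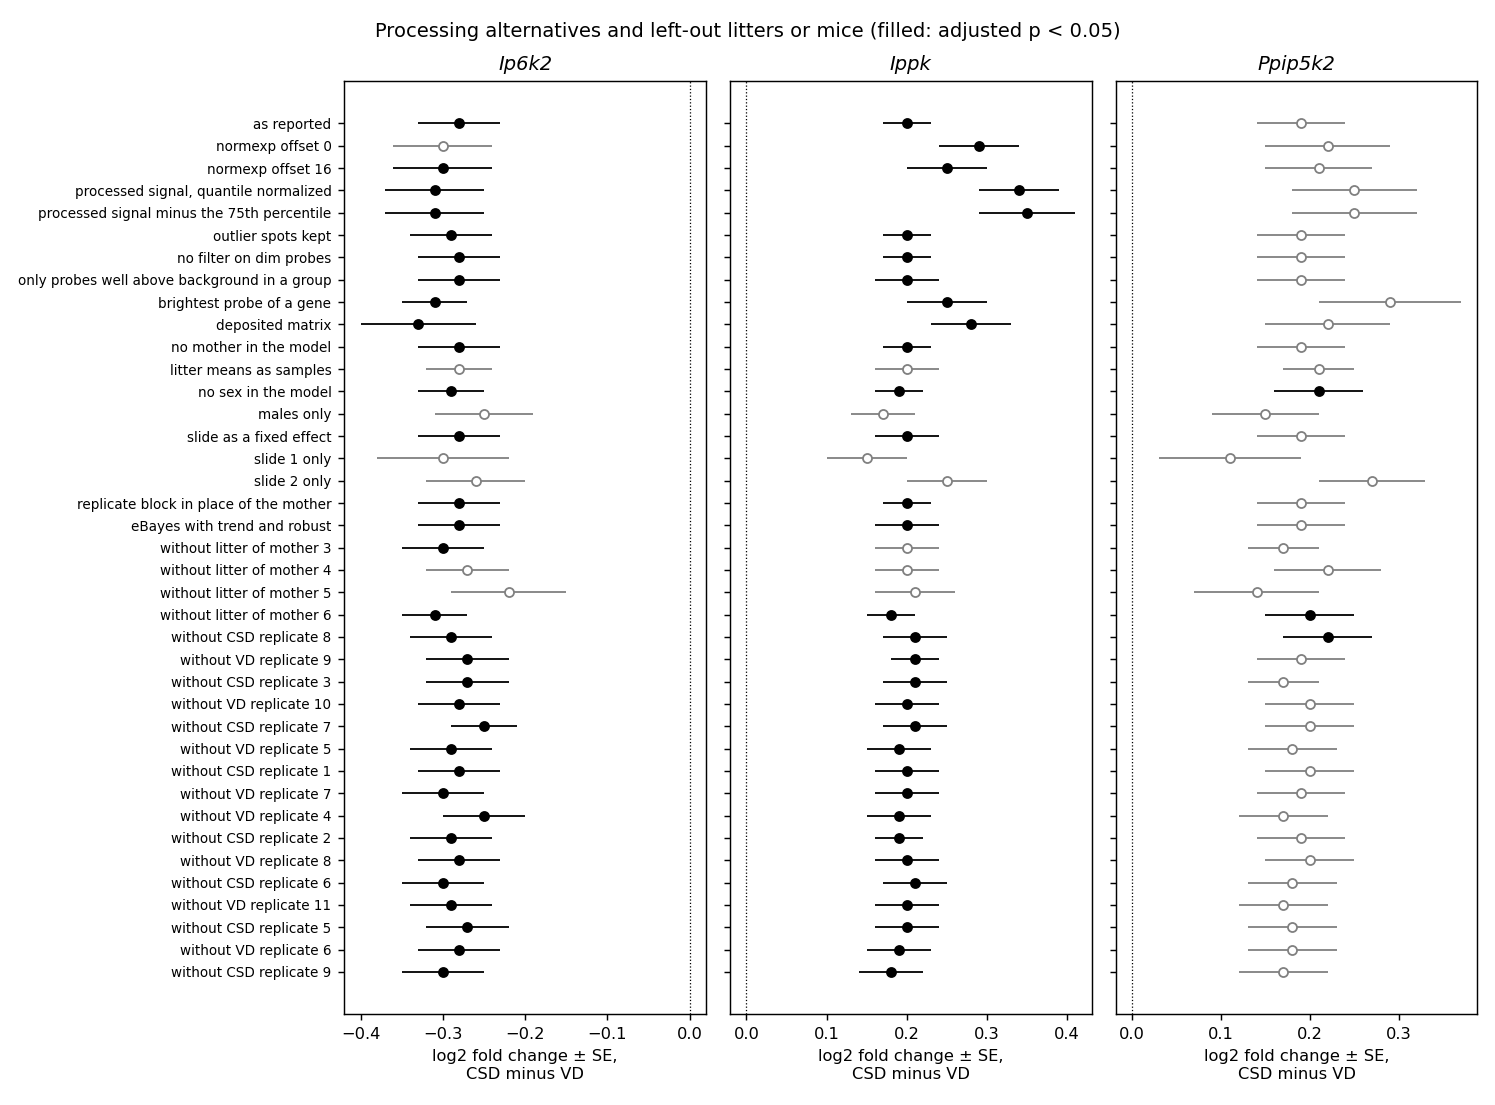
Log2 fold change with its SE (x axis, CSD minus VD) of Ip6k2, Ippk and Ppip5k2 as reported, under each alternative of processing or model, and without each litter or pup (y axis). Filled points passed an adjusted p under 0.05. Ip6k2 stays between -0.33 and -0.22 and Ippk between 0.15 and 0.35, and Ppip5k2 passes under 3 of 38 alternatives.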

How the data were processed

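The authors hybridised colon RNA with integrity above 9 on 1-colour Agilent mouse arrays and deposited the scanner output (Feature Extraction 12.0.3.2), in which each spot has a mean intensity, a background intensity and a processed intensity. The deposited gene matrix holds log2 values of 27036 genes, which the authors corrected by an unnamed method, quantile normalized, filtered and averaged by gene with limma 3.38. Here normexp background correction (offset 50) was applied to the scanner output with limma 3.58.1 in R 4.3.3. Control spots and spots marked as outliers were left out, and log2 values were quantile normalized. Probes above the 5% quantile of their array on at least 4 arrays were kept (56366 of 56605) and averaged by gene.

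The comparison followed the authors' model: lmFit and eBayes on delivery mode and sex, with the mother as a random effect (duplicateCorrelation, consensus correlation 0.015), and Benjamini-Hochberg adjustment over all genes. Litters were compared with litter and sex as fixed effects. On simulated data with the same litters and sexes, the model recovered the fold changes. The false share of its calls exceeded the nominal 5% with and without variation between litters. Adjusted p-values near the threshold may thus be too small. Each setting was a single draw with a litter correlation other than the one estimated here, so that the false share in these data is not known. Single genes also had exact permutation tests. Named genes were all 10 kinases, from each other list the called genes or else the 2 with the smallest p, and for each called kinase the 3 genes of highest correlation. The kinases and all lists were chosen with earlier results of these data known. Pups are separate animals, but only 4 litters and 16 arrays limit the precision. Gene names are those of the array's design, and RefSeq's table for GRCm38.p6 served only to select named genes for the correlations. Alternatives covered background correction, normalization, filters, model terms, slides, and left-out litters or pups. Plots were drawn with matplotlib 3.10.9.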

Additional observations from a re-analysis of the deposited data

Results flagged for a closer look

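In 4 of 36 groups of 8 pups checked, 1 pup stood far from the others by Dixon's ratio. This count cannot be set against the 1 group in 20 that chance flags. Xpr1 was chosen after its values were seen, and the flagged Ipmk value lacks a probe. Ip6k1 was at 8.98 in CSD pup 8, and the next pup was at 8.83. Ipmk was at 9.09 in VD pup 4, and the next was at 8.70. That pup's mean rests on 4 of the 5 Ipmk probes, since the spot of its dimmest probe was left out as an outlier. On each of those 4 probes another VD pup was higher. Itpkb was at 8.77 in CSD pup 9, and the next was at 8.62. Xpr1 was at 8.37 in VD pup 8, below the next at 9.18.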

How the results depend on the processing

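The delivery comparison called 460 genes, 980 probes and 2 kinases (limma, adjusted p under 0.05), and these counts moved with the settings. Without an offset in the background correction 102 genes (43 higher and 59 lower, against 259 and 201), 344 probes and 1 kinase were called, and with an offset of 16, 243 genes and 599 probes. The scanner's processed signal gave 177 genes and 510 probes with quantile normalization, and 164 and 453 when scaled to the 75th percentile. The deposited matrix gave 170 genes. Leaving sex out of the model gave 992 genes, 1951 probes and 3 kinases. Litter means gave 0 genes, 0 probes and 0 kinases (4034 genes at an unadjusted p under 0.05), males alone 0 genes, 9 probes and 0 kinases (3295 genes), slide 1 gave 11 genes, 12 probes and 0 kinases, and slide 2 gave 0 genes, 1 probe and 0 kinases (3789 genes). Without the litter of mother 3, 212 genes, 636 probes and 1 kinase were called, without mother 4, 138, 269 and 0, without mother 5, 189, 386 and 0, and without mother 6, 2265, 3899 and 3. Without single pups, 145 (VD pup 4) to 617 (VD pup 7) genes and 326 to 1246 probes were called. Ip6k2 lost its call with -0.30 (no offset, adjusted p = 0.052), -0.28 (litter means, 0.257), -0.25 (males, 0.249), -0.30 (slide 1, 0.46), -0.26 (slide 2, 0.251), -0.27 (without mother 4, 0.0624) and -0.22 (without mother 5, 0.215). Ippk lost its call with 0.20 (litter means, 0.295), 0.17 (males, 0.258), 0.15 (slide 1, 0.56), 0.25 (slide 2, 0.205), 0.20 (without mother 3, 0.0552), 0.20 (without mother 4, 0.0592) and 0.21 (without mother 5, 0.0873). Both kept their calls with the slide as a fixed effect (0.015 and 0.0185). Ppip5k2 was called in 3 of 38 alternatives, without sex (0.21, adjusted p = 0.0319), without the litter of mother 6 (0.20, 0.0305) and without CSD pup 8 (0.22, 0.0341). Bpnt1 kept its call in 33 of 38 and Slc5a3 in 31 of 38. Uncalled values that changed sign were Ip6k1 (0.04, slide 1), Ipmk (0.13 over probes well above background, 0.18 for the brightest probe, 0.17 in the deposited matrix, 0.08 in males, 0.09 on slide 1, 0.12 without mother 5 and 0.08 without VD pup 4), Itpk1 (-0.04 without mother 6), Ppip5k1 (-0.04 without mother 3) and Itpkc (-0.04 for the brightest probe, -0.01 in males, -0.09 on slide 2, -0.01 without mother 3, -0.08 without mother 5 and, without single pups, -0.02 for CSD pup 8 to 0.06 for CSD pup 9). The Ppip5k2 probe A_55_P2721533, at 0.01, had -0.05 in males, -0.11 on slide 1, -0.02 without mother 3, mother 6 or VD pup 4, and -0.01 without CSD pup 2, 3 or 9 or VD pup 8, up to 0.03 without other single pups, 0.06 without mother 4, 0.05 on the quantile normalized processed signal and 0.14 on slide 2. A replicate block in place of the mother called 697 genes (386 higher and 311 lower), 1340 probes and the same 2 kinases. The 5 shared numbers had correlations of deviations from -0.05 to 0.22. The consensus correlation was 0.046 for the replicate block and 0.015 for the mother. Whether pups with the same number shared anything else was not tested, nor were the causes of these changes. Ip6k3 had no value over probes well above background, and the delivery by sex term could not be fitted without the litter of mother 5.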

Other observations

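Xpr1, a phosphate exporter that binds inositol pyrophosphates, was chosen after its values were seen. It had a log2 fold change of -0.40 (SE 0.16, adjusted p = 0.239, limma), and did not pass the test. Its values were 9.07 ± 0.08 (SD, n = 4) for mother 3, 8.54 ± 0.07 (SD, n = 4) for mother 4, 9.34 ± 0.12 (SD, n = 5) for mother 5 and 8.92 ± 0.48 (SD, n = 3) for mother 6. The litters of mothers 4 and 3 differed by -0.54 (SE 0.14, adjusted p = 0.262, limma), and those of mothers 6 and 5 by -0.42 (SE 0.16, adjusted p = 0.283), neither past the threshold. VD pup 8 of mother 6, at 8.37, lay below every pup of mother 4 (8.44 to 8.59), while the other pups of mother 6 were at 9.20 and 9.19. Without that pup Xpr1 passed the test (-0.51, adjusted p = 0.0488, limma), and without the litter of mother 6 it had -0.54 (adjusted p = 0.0283). Without the litter of mother 3 it had -0.69 (0.0789), without mother 4 only -0.15 (0.774), and without mother 5 only -0.12 (0.887), and it was called under 2 of 38 alternatives.

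Of the 5 probes of Plce1, A_55_P2096370 passed the test over all probes (0.39, SE 0.07, adjusted p = 0.0152, limma), 3 others lay between 0.02 and 0.08, and A_51_P451527 was not well above background on any array. A difference between these probes was not tested.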
